A study of Drosophila melanogaster with 2 samples.

Results

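The genes of the Mediator complex were examined as binding targets of the CG14014 product. They were the protein-coding genes of the Ensembl BDGP6 annotation whose symbol starts with MED and a digit, together with skd, kto, CycC and Cdk8. This gave 29 of 13968 protein-coding genes. The peak lists came from chromatin immunoprecipitation with sequencing (ChIP-seq) on whole Drosophila melanogaster embryos of the strain CG14014-GFP, aged 0 to 24 h and carrying CG14014 fused to enhanced GFP, with an antibody against GFP. The labels give 2 biological replicates of this 1 genotype and age, both from the same strain, so no groups were compared. The embryos held all tissues, the labels do not state the promoter that drives the fusion, and the possible control experiment they name was not used here. Read depth is unknown, because the lists give peaks and no counts.

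Mediator is a large coactivator that carries signals from DNA-bound transcription factors to RNA polymerase II at promoters. Its core has a head and a middle module that contact the polymerase, a tail that is a main target of activators, and the subunit MED14, which holds the modules together. A separable kinase module consists of Cdk8, CycC and the large proteins encoded by kto and skd, the fly counterparts of the mammalian subunits MED12 and MED13. MED27, MED28 and MED30 are placed in different modules by different sources and are kept apart here.

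A gene was called when the summit of a peak, its highest point, lay within 500 bp of any annotated transcription start site (TSS) of that gene. In the conservative list, which holds peaks reproducible between the replicates, 8 of the 29 genes had such a summit (27.6%, 95% Wilson interval 14.7 to 45.7, counting error over genes only), against 14.6% of all protein-coding genes. The lower end of the interval lay beside that background. The 8 genes were MED30, MED27, MED17, MED4, skd, MED31, MED7 and MED16.

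The DNA around these summits is shown because it carries the peaks described below. Each stretch runs 5′ to 3′ on the strand of the Mediator gene and reaches up to 50 bp to each side of the summit, with annotated UTR or coding sequence at its ends left off. Sequences are from the RefSeq release 6 assembly, which is dm6. Capitals mark a match to any of 7 words searched on both strands. These were the Dref word TATCGATA, the AT-only word TTAAAA, the homeodomain word TAATTA, the TATA word TATAAA, the GAGA factor word GAGAG, and the E-box words CACGTG (palindromic) and CAGCTG (likewise). The MED30 window is chr3L:654229-654329 (minus strand), MED27 chr3R:5654958-5655058 (plus), MED17 chr3R:18188952-18189052 (plus), MED4 chr3L:7250632-7250717 (minus), skd chr3L:21027777-21027877 (minus), MED31 chr3R:4641736-4641795 (plus) and MED7 chr3R:10761033-10761105 (minus).
MED30: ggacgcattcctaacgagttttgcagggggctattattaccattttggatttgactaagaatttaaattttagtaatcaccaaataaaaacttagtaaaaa
MED27: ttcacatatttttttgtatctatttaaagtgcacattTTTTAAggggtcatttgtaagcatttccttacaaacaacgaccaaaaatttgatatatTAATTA
MED17: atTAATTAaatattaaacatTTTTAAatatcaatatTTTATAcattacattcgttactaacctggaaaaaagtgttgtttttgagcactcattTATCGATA
MED4: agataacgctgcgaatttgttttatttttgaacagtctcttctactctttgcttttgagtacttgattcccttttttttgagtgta
skd: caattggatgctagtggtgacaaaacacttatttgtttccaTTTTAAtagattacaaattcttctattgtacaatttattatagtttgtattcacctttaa
MED31: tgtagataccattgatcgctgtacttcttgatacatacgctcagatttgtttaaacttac
MED7: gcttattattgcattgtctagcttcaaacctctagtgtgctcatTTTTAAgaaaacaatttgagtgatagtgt

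The strongest Mediator peak lay at MED30, which encodes a subunit known from metazoans. Its peak (3L, 654181 to 654378) had a signal of 342 in the conservative list, the authors' own value per peak, and ranked 332 of 3216. In the lists of the replicates alone, its signal was 172 (rank 409 of 4617) in replicate 1 and 159 (rank 325 of 2737) in replicate 2. The summit was 190 bp upstream of the TSS, between genes, and 84 bp from the TSS of Rev1, a translesion DNA polymerase gene on the other strand.

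MED27 followed with a signal of 316 (3R, 5654923 to 5655108, rank 382). It had 130.1 in replicate 1 (rank 683) and 188 in replicate 2 (rank 251). Its summit was 131 bp upstream of MED27 and 147 bp from the TSS of elm. MED30 and MED27 were the only Mediator genes with a global irreproducible discovery rate (IDR) of 1e-05 in each of the 4 thresholded lists, the lowest value the files hold. A peak's global IDR estimates which fraction of the peaks ranked down to it would not be reproduced.

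In the head module, 1 of 7 genes was called in the conservative list, namely MED17, whose yeast counterpart is a core subunit of the head. Its peak (3R, 18188947 to 18189085) had a signal of 218 and the summit 70 bp upstream of the TSS, between genes. The signal was 75.1 in replicate 1 (rank 1711 of 4617) and 135 in replicate 2 (rank 438 of 2737). MED17 was thus nearer the top of the list of replicate 2, although the lists differ in length. MED6 and MED8, also head subunits, were called in the optimal list, which draws on the pooled reads, and in the list of 1 replicate each.

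The MED6 peak (3R, 9767662 to 9767991, signal 102 in the optimal list) had its summit in the 5′ UTR of a MED6 transcript, 12 bp upstream of another MED6 TSS and 7 bp from a TSS of Naa80, an actin N-terminal acetyltransferase gene. MED6 had a signal of 72.7 in the thresholded list of replicate 1 and none in that of replicate 2. For MED8 (2R, 20326870 to 20327199, signal 70.05) it was the reverse, with 43.3 in the thresholded list of replicate 2 and none in that of replicate 1. MED11, MED18, MED20 and MED22 passed in no thresholded list.

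The middle module had 3 of 9 genes in the conservative list. MED4 (3L, 7250517 to 7250846) had a signal of 178, with 108 in replicate 1 (rank 923) and 66.1 in replicate 2 (rank 1344). Its summit, 155 bp upstream and between genes, was the only one of the 8 that was not within 500 bp of a TSS of another protein-coding gene. MED7 (3R, 10760890 to 10761219) had a signal of 138, with 57.6 in replicate 1 and 79.9 in replicate 2. The MED7 summit was 7 bp downstream of the start site in the list of replicate 1 and 24 bp upstream of it in the list of replicate 2.

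MED31 (3R, 4641621 to 4641950), a small conserved subunit of the middle module, had a signal of 141 in the conservative list, with 60.02 in replicate 1 and 81.2 in replicate 2. Its summit was 177 bp upstream of MED31 and inside an intron of CG9775. The same summit was also 177 bp from a TSS of slx1, a nuclease subunit gene. Distances to MED31 and slx1 were equal in every list that held the peak, although the summit position varied between lists. Both genes thus had an annotated TSS at the same position. The summit position therefore cannot tell MED31 and slx1 apart. MED31 was the only Mediator gene in the conservative list that was not in the optimal list. The global IDR of its peak was 0.000396 in the ranking of the true replicates and 0.731 in that of the pooled reads. By signal, the peak still ranked 1500 of 116698 in the pooled ranking. MED9 passed in replicate 1 alone, with a signal of 22.6 near the end of the list (rank 4434 of 4617).

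Of the other middle genes, MED1, MED10, MED19, MED21 and MED26 passed in no thresholded list. MED26, on chromosome 4, came near the threshold in the pooled ranking, with a signal of 54.9 at 481 bp downstream of a MED26 TSS. The global IDR was 0.0117, against the authors' threshold of 0.01. In the ranking of replicate 1, its leading promoter summit was 46 bp downstream of another TSS, with a signal of 20.2 and a global IDR of 0.331. The rankings of replicate 2 and of the true replicates held no MED26 promoter summit. MED21 had no promoter summit in any of the 8 lists, rankings included. Its nearest conservative summit was 2236941 bp away and its nearest optimal one 2020386 bp away. Conservative and optimal summits were thus absent from the surrounding region as well. For the rankings, the region beyond the promoter was not examined.

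In the tail module, 1 of 5 genes was called in the conservative list. MED16 (2R, 22182803 to 22183132) had a signal of 114, with 58.8 in replicate 1 and 49.2 in replicate 2, and its summit lay 170 bp upstream and 89 bp from the TSS of CG11170. A further conservative peak overlapped it, with the summit 36 bp downstream of the TSS in the MED16 5′ UTR and a signal of 5.99. MED25 was called in the optimal list, with a signal of 76.7 and the summit in the 5′ UTR of Hs6st, a heparan sulfate sulfotransferase gene, 493 bp upstream of MED25. That is just inside the 500 bp limit. MED15, MED23 and MED24 passed in no thresholded list, nor did the scaffold gene MED14.

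Of the 4 kinase module genes, skd was the only one called. Its promoter peak (3L, 21027662 to 21027991) had a signal of 159.8, with 66.8 in replicate 1 (rank 2019) and 84.6 in replicate 2 (rank 923). The summit was 393 bp upstream of skd and 88 bp from the TSS of Pdss2, a gene of ubiquinone side-chain synthesis. A distance of 200 bp would not have assigned it to skd.

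CycC and Cdk8 had promoter summits in rankings only. Replicate 1 ranked CycC with a signal of 39.8 and a global IDR of 0.0129, and replicate 2 ranked no promoter summit of it. Cdk8 was ranked with a signal of 34.6 by replicate 1 (global IDR 0.0296) and of 11.6 by replicate 2 (global IDR 0.837). The catalytic pair of the module was thus closer to the threshold in replicate 1 than in replicate 2. The fourth gene, kto, was also in rankings only. Of the replicates alone, replicate 1 ranked it, with a signal of 5.66, and replicate 2 did not. The rankings of the true replicates and of the pooled reads held it with a signal of 13.4.

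**Figure D1:**
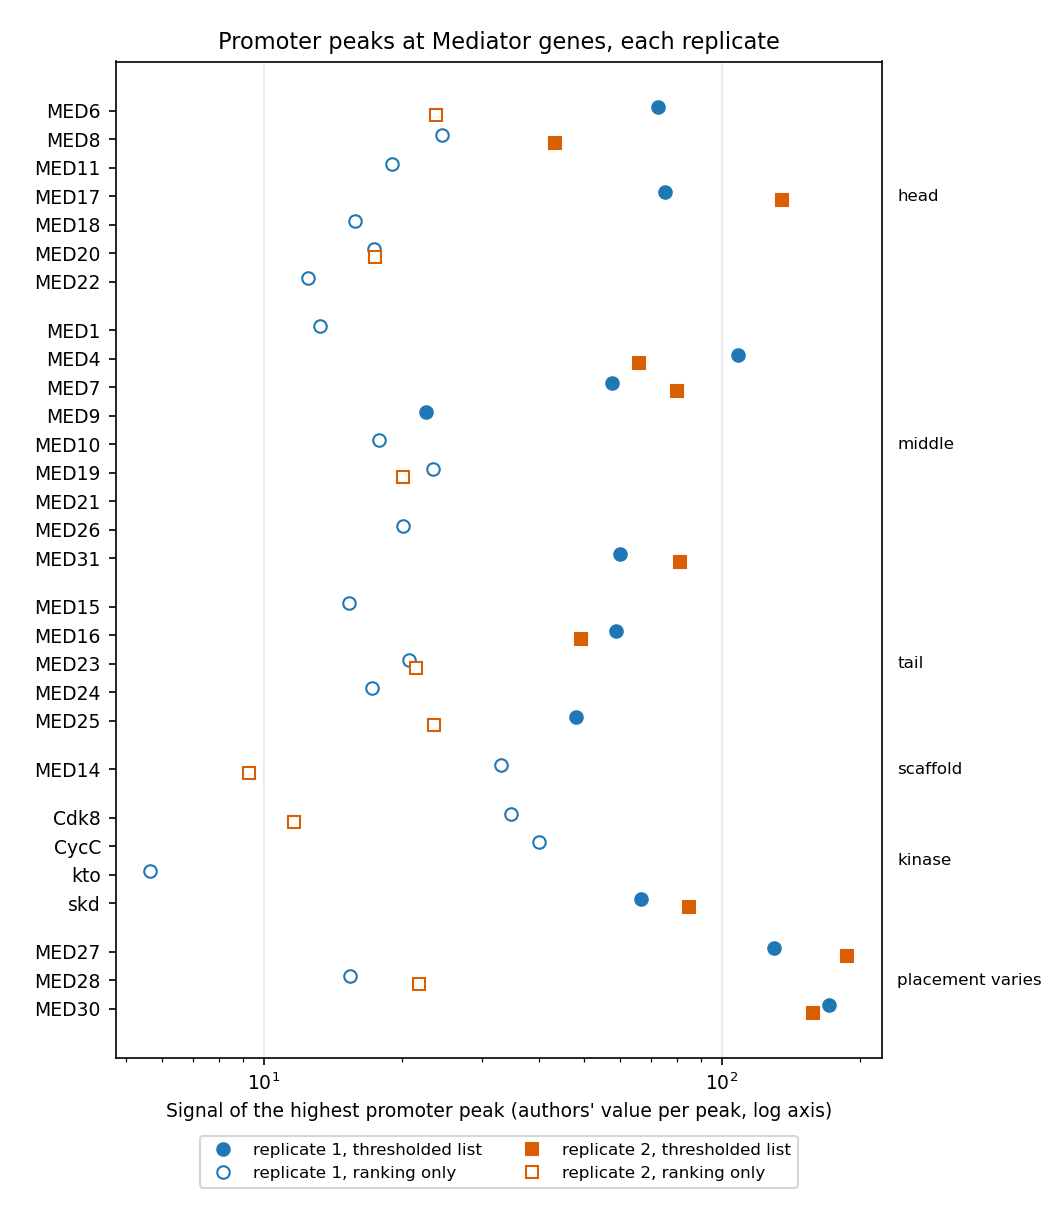
Signal of the highest promoter peak (horizontal log axis, the authors' value per peak) for each of the 29 Mediator genes, ordered by module, with circles for replicate 1 and squares for replicate 2. Filled symbols passed the authors' threshold in that replicate; MED30 and MED27 lie furthest to the right, and MED21 has no symbol.

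The lists of the replicates alone held 11 Mediator genes in replicate 1 (37.9%) and 9 in replicate 2 (31.03%), against 18.6% and 13.2% of all protein-coding genes. Both lists held 8 of them, and these were the 8 genes of the conservative list. MED6, MED9 and MED25 passed in replicate 1 only, and MED8 in replicate 2 only. Shares of all protein-coding genes in both lists or in 1 only were not counted, so this overlap is a description. Signals of the 8 shared genes did not lean one way: MED4, MED16 and MED30 had the higher value in replicate 1 and the other 5 in replicate 2. It is not known whether signals of different lists share a scale, so these ratios, 0.555 at MED17 to 1.64 at MED4, only describe the lists. The summits of the replicates lay 5 bp apart at MED30 and 41 bp apart at MED31, the extremes of the 8.

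The optimal list held 10 Mediator genes (34.5%, 95% Wilson interval 19.9 to 52.7), against 21.9% of all protein-coding genes. In all, 12 of the 29 genes passed in at least 1 of the 4 thresholded lists, against 24.1% of all protein-coding genes. A total of 7 passed in each of the 4 lists, against 10.6% of all protein-coding genes, and 17 passed in none. The rankings reach down to peaks of very low signal. They held 24 Mediator genes (82.8%) in the ranking of the true replicates and 25 (86.2%) in that of the pooled reads. The ranking of replicate 1 held 28 (96.6%) and that of replicate 2 held 17 (58.6%). Shares of all protein-coding genes in the same rankings were 69.3%, 79.9%, 70.2% and 64.1%. The Mediator share was thus below that of all genes in the ranking of replicate 2 and above it in the others. Each gene ranked in replicate 2 was also ranked in replicate 1. The 21 genes without a conservative promoter summit had their nearest one 2358 bp or more away, with a median of 7204 bp.

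The Mediator genes often shared their promoter region with a gene on the opposite strand. A divergent promoter, where a second coding gene starts within 500 bp and is transcribed away from the first, was found at 19 of the 29 genes (65.5%), against 27.3% of all protein-coding genes. Among these 19 genes, 7 had a conservative promoter summit (36.8%), against 29.6% of all genes with a divergent promoter. Among the other 10 Mediator genes, 1 had one, MED4, against 8.98% of all such genes. Within each of these classes the Mediator share lay nearer to its background than over all genes together. This did not hold for divergent start sites 200 to 500 bp apart (6 of 9, against 34.4% of all such genes). Below 200 bp the Mediator share lay under the background (1 of 10, against 22.1%). Whether promoter architecture, or activity in these embryos, accounts for the count was not tested.

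**Figure D2:**
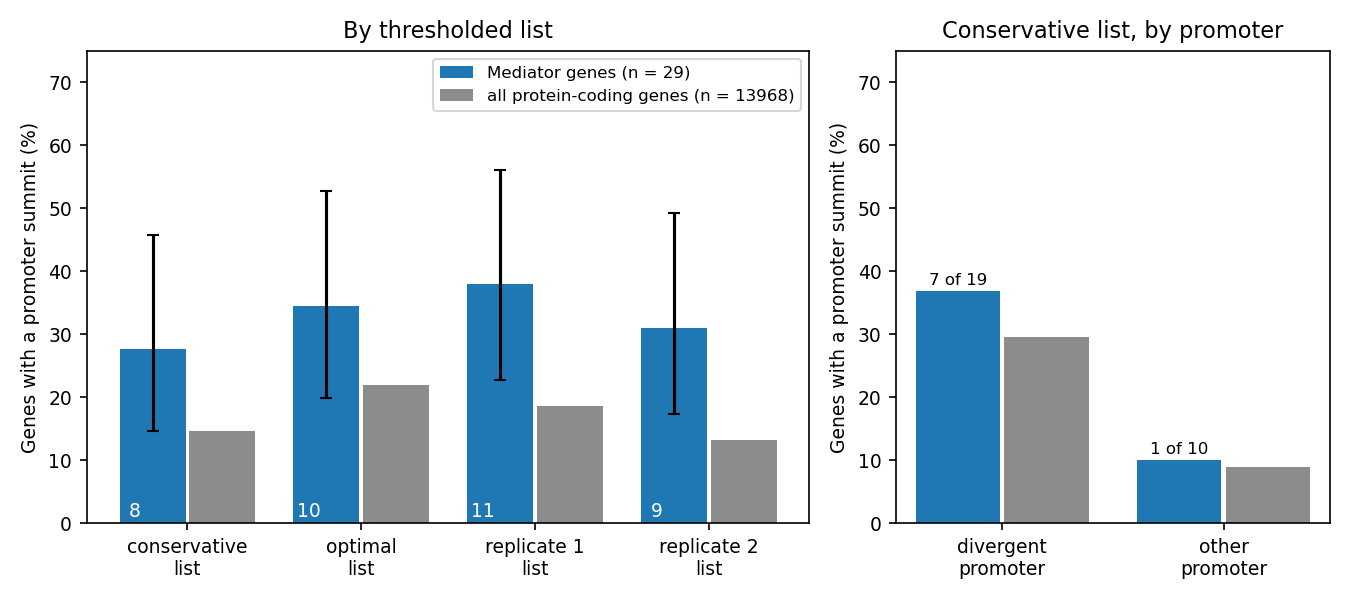
Percentage of genes with a promoter summit (vertical axis) for Mediator genes in blue and all protein-coding genes in grey; left, in the 4 thresholded lists, with 95% Wilson intervals and the number of Mediator genes in white, and right, in the conservative list by kind of promoter. The blue bars are higher throughout, with 7 of 19 genes called at divergent promoters and 1 of 10 at the others.

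The leading summit was upstream of the Mediator TSS at all 8 genes of the conservative list, from 23 bp at MED7 to 393 bp at skd. Of all conservative promoter summits, 82.4% lay upstream of their nearest TSS, whichever gene that TSS belonged to. The 2 measures differ. By nearest TSS, the MED31 summit lay downstream, 52 bp inside CG9775, and the other leading summits upstream. The weak second MED16 peak had its summit downstream as well. At 7 of the 8 genes the summit was also within 500 bp of a TSS of at least 1 other gene. Counted per peak, 39.0% of all conservative promoter peaks were shared by 2 or more genes. At 6 of the 7 Mediator genes the summit lay between the head-to-head start sites, and at MED31 it lay inside CG9775. The share of all divergent genes with the summit in that position was not counted. The summit was nearer to the Mediator TSS than to the other gene's at MED27, MED17 and MED7, and nearer to the other gene's at MED30, skd, MED31 and MED16. A peak in such a shared region cannot be given to either gene from its position.

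**Figure D3:**
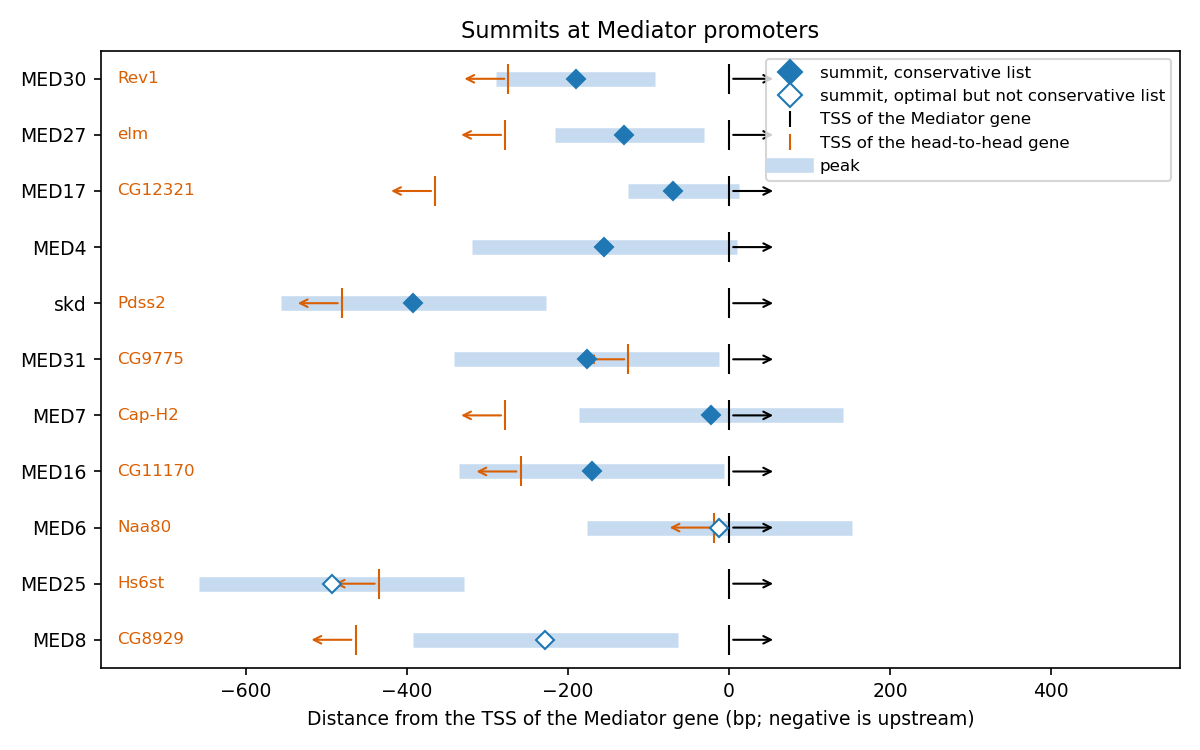
Peaks (light blue bars) and summits (diamonds) at the 11 Mediator genes of the conservative or optimal list, by distance in bp from the TSS of the Mediator gene (black, at 0), with the TSS of the head-to-head gene in orange. Filled diamonds are in the conservative list and open ones in the optimal but not the conservative list; most summits lie between the start sites, with MED31 and MED25 as the exceptions, and MED4 has no head-to-head gene.

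The summits lay in AT-rich DNA. GC content within 50 bp of the summit averaged 28.7% ± 5.24 (SD) over the 8 Mediator genes, from 20.8% at MED17 to 37.6% at MED7, against 34.3% ± 10.3 over all 1569 conservative promoter peaks. In windows centred 300 bp to each side it averaged 46.7% ± 4.82 at the Mediator genes and 43.7% ± 7.19 at all promoter peaks. GC content was lower at the summit than in these flanks at 8 of 8 Mediator genes and at 75.1% of all promoter peaks. MED27 had the widest gap, with 24.8% at the summit and 55.9% in the flanks. The values are a description of 8 windows, and no test was made on them.

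**Figure D4:**
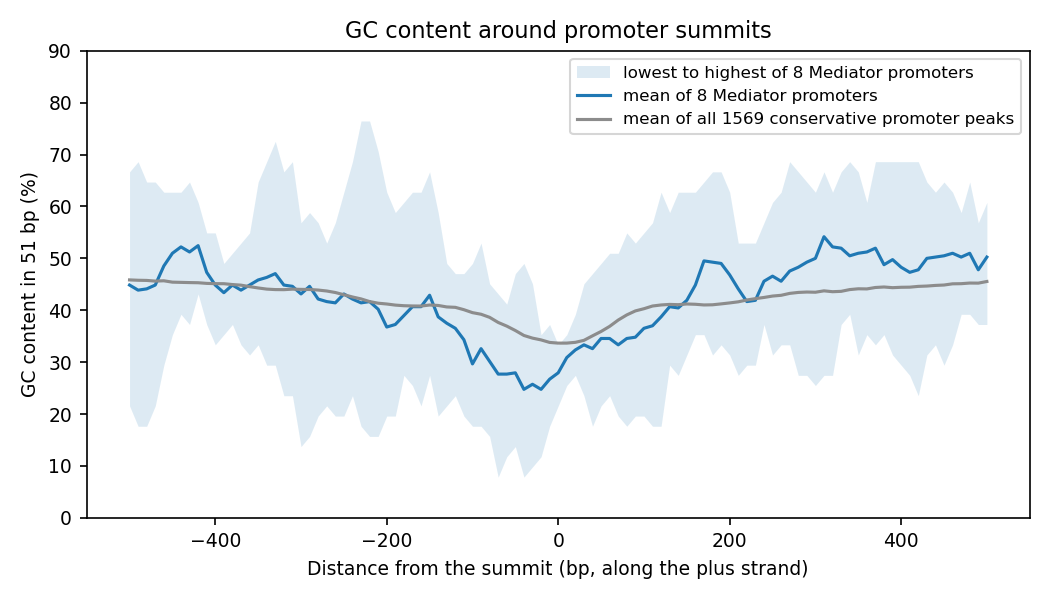
GC content in windows of 51 bp (vertical axis, %) by distance from the summit in bp along the plus strand, for the 8 Mediator promoters of the conservative list (blue line, mean; band, lowest to highest) and for all 1569 conservative promoter peaks (grey line, mean). Both means dip at the summit, and the blue line goes lower.

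The AT-only word TTAAAA was within 50 bp of the summit at 5 of the 8 Mediator genes, MED27, MED17, skd, MED31 and MED7, against 37.9% of all conservative promoter peaks. At MED31 it fell in the 5′ UTR of the neighbouring gene and is not part of the stretch printed above. TAATTA was found at MED27 and MED17, against 10.1% of all promoter peaks. TATCGATA, which the promoter factor Dref is known to bind, and TATAAA were found at MED17 alone, against 3.25% and 21.5%. None of the 7 words was found in the MED30, MED4 and MED16 windows.

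Over the promoters of all 29 genes, from 250 bp before to 50 bp after the most upstream TSS, TATCGATA was in 7 (24.1%) against 9.36% of all 13968 promoters. These were MED7, MED8, MED9, MED17, MED18, MED25 and MED28. Of these 7, MED7 and MED17 had a conservative promoter summit. TTAAAA was in 20 (69.0%) against 53.4%, TAATTA in 10 against 20.4% and TATAAA in 15 against 45.8%. GAGAG was in 6 against 29.7%, CACGTG in 1 against 4.20% and CAGCTG in 5 against 17.6%. GC content of these windows averaged 36.6% ± 7.14 (SD) over the 29 Mediator promoters and 39.1% ± 7.74 over all promoters. Whether base composition accounts for the word shares was not tested. The words can overlap in AT-rich DNA, and a match is not a measured site.

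Genes whose products work with Mediator were listed as well: the 13 genes with a symbol starting Polr2 (RNA polymerase II subunits and the associated Polr2M), ix, which encodes a further Mediator subunit, the TFIIH kinase genes Cdk7, CycH and Mat1, the elongation kinase genes Cdk9 and CycT, the bromodomain gene fs(1)h and the cohesin loader gene Nipped-B. Of these 21 genes, 7 had a conservative promoter summit (33.3%), against the 14.6% of all genes given above. The leading ones were Polr2H (signal 249), Polr2B (237), Polr2J (205), Polr2F (182), fs(1)h (107) and Polr2E (90.5). These signals lie in the range of the Mediator genes, from 114 at MED16 to 342 at MED30, or below it. The Polr2H, Polr2B, Polr2J and fs(1)h summits were shared with another gene. The Polr2F and Polr2E summits were not, nor was that of CycH, the remaining called gene. Counted per peak and not per gene, 39.0% of all conservative promoter peaks were shared in this way.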

How the data were processed

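ChIP-seq peak lists of 2 biological replicates (fragments of 200 to 800 bp, sonication, per the labels) were used as the authors deposited them, on dm6 per the file notes. For the alignment and peak calling, tools are not given in the sources used. Each peak carries a signal value that the authors deposited, of unstated scale. It was ranked within single lists, and values of different lists are set side by side as a description only. The rankings carry the −log10 of the global IDR, as deposited. A further 16 columns on the inputs of the series rankings were not used. No list gives counts, so depth is unknown.

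Genes and TSSs came from Ensembl release 115, and no peak ended beyond an arm of the release 6 reference. Summits were assigned to every protein-coding gene with a TSS within 500 bp. Assignment was tested on simulated data, where 400 of 400 planted promoter summits and 0 of 400 distant ones were assigned. The 29 genes, the partner list and the words were chosen with earlier results of these data known. Every Mediator gene was named, and up to 6 partner genes by signal. No sequence of 2R was printed. Genes are described by counts beside the background, without a test. Alternatives were other distances, overlap, nearest TSS, most upstream TSS, a global IDR of 0.001 and each replicate alone. Software was matplotlib 3.10.9, scipy 1.17.1, pandas 2.3.3, numpy 2.4.6 and Python 3.11.15.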

Additional observations from a re-analysis of the deposited data

How the results depend on the processing

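With each peak given only to the gene of its nearest TSS, Mediator genes with a conservative promoter summit numbered 5, against 8 (10.4% of all genes, against 14.6%), and with an optimal one 6, against 10 (16.3% of all genes, against 21.9%). MED16 was kept among the 5 through its weak peak downstream of the TSS. Partner genes numbered 4, against 7. In the lists of single replicates, Mediator genes numbered 9 to 11 and partner genes 6 to 7 (13.2% to 18.6% of all genes). With 200 bp in place of 500 bp, divergent Mediator promoters numbered 10, against 19, while 10.9% of all genes had one. The other alternatives kept each count within 1.5 times: conservative Mediator genes numbered 7 with 200 bp (without skd; 10.6% of all genes) or a global IDR of 0.001 (without MED16; 9.49%), and 8 with 1000 bp (17.1%), overlap (15.5%) or the most upstream TSS (12.8%). The 7 genes also in the optimal list had the same peaks there, with the same position and signal. Their equal signals were therefore fixed in advance and are no check. Signals of all 8, which are for both replicates together, were lower in each replicate alone. The cause was not tested. No paired analysis was possible because there was 1 group. Depth is unknown, so a missing peak does not show a lack of binding.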

Other observations

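Away from its promoter, skd was the only Mediator gene with a thresholded summit inside the gene. A conservative peak in an intron (3L, 21009636 to 21009965), 16403 bp from the nearest skd TSS, had a signal of 96.2, with 55.01 in replicate 1 and 39.7 in replicate 2. The optimal list held a further intronic peak at 3L, 21011278 to 21011607, with a signal of 53.1. At 34621 bp, skd is also the longest of the 29 genes, and summits per length were not compared.

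The spacing of head-to-head start sites differed between divergent Mediator genes with and without a peak, a pattern seen in the data and not tested. The 7 genes with a conservative promoter summit had a spacing of 125 to 481 bp (median 278), and the 12 without one 19 to 464 bp (median 81). With a spacing of 200 bp or more, 6 of 9 Mediator genes had a summit, against 34.4% of all such genes. Below 200 bp it was 1 of 10, MED31, against 22.1%. Over all 3815 divergent genes the median spacing was 259 bp with a summit and 235 bp without.

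By chromosome, the conservative list held 4 of 8 Mediator genes on 3R (15.3% of all genes there), 3 of 12 on 3L (16.2%), 1 of 4 on 2R (14.2%), 0 of 2 on 2L (14.7%), 0 of 2 on X (12.4%) and 0 of 1 on chromosome 4 (2.5%). MED20 shares a divergent promoter, with start sites 47 bp apart, with Trf, the gene of a TBP-related factor.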
